A study of Rattus norvegicus with 10 samples.

Results

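White adipose tissue was examined for 10 genes that bring fatty acids into fat cells and prepare them for use: Lpl, Gpihbp1, Angptl4, Vldlr, Cd36, Slc27a1, Fabp4, Fabp5, Acsl1 and Acsl5. All 10 had a probe set, a group of probes for one transcript, among the 14217 genes measured. Every probe set whose annotation gives one of these symbols alone was taken, which made 16 of the 31042 tested. The noodle group was 5 male rats, 13 weeks old, whose diet was 30% instant noodle by weight and took 26% of its energy from fat. The control group was 5 male rats of the same age on a diet described as the same but lacking seasonings. Feeding was paired, at about 60 g of either diet for each kg of rat and day, and lasted 30 days (the labels also say 4 weeks). The sources used here do not give strain, genotype, fat depot or hour of sampling, nor whether the control diet held the noodle. One array was run per animal.

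Triglyceride reaches fat tissue in lipoproteins and is cut there on the capillary wall by lipoprotein lipase, the product of Lpl. Gpihbp1 protein carries the lipase across the endothelial cell and holds it there, Angptl4 inactivates it, and the receptor encoded by Vldlr binds triglyceride-rich particles and helps deliver their lipid. The freed fatty acids enter the cell with the help of CD36 and the transport protein encoded by Slc27a1, are carried by binding proteins such as those of Fabp4 and Fabp5, and are trapped as acyl-CoA by the synthetases encoded by Acsl1 and Acsl5.

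Array medians lay between 6.17 and 6.18 and correlations between arrays between 0.993 and 0.998, with control animal 14 the least like the others (mean correlation 0.9948). Of the 31042 probe sets, 28435 hardly varied between the arrays. Both measures therefore had little room to differ and say little about how alike the animals were. The tissue label was set against marker lists. Of 19 measured adipocyte markers, 18 lay above the array median, with Car3 the highest at 13.6, while of 17 measured brain markers, which bear on a remark about brain in the extraction text, 3 did, with Mbp the highest at 8.76. On the control probe sets of Actb and Gapdh, the 3-prime signal exceeded the 5-prime signal by 0.84 ± 0.07 in noodle animals and 0.95 ± 0.08 in control animals. This gap is a measure of RNA quality (log2, SD, n = 5 each, two-sided exact permutation p = 0.0476). The tissue was taken whole, so fewer cells of a type and less RNA per cell cannot be told apart.

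Of the 16 probe sets, 6 varied between the arrays and 10 hardly did. The variable ones had an SD over the 10 arrays above 0.01 on the log2 scale, as did 2607 probe sets of the whole table. They belonged to Slc27a1 (SD 0.29), Angptl4 (0.27), Vldlr (0.23), Acsl1 (0.19), Gpihbp1 (0.095) and Cd36 (0.026), 1 probe set for each gene. Nearest to the limit were Cd36 above it and, far below it, a probe set of Vldlr with an SD of 0.00027. The limit thus fell within a wide gap. The other 4 genes, Lpl, Fabp4, Fabp5 and Acsl5, had flat probe sets alone. How the authors made values this flat is not given in the sources used here. A difference can therefore be read only for the variable probe sets, on the deposited scale, and sizes are not comparable between probe sets.

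**Figure D1:**
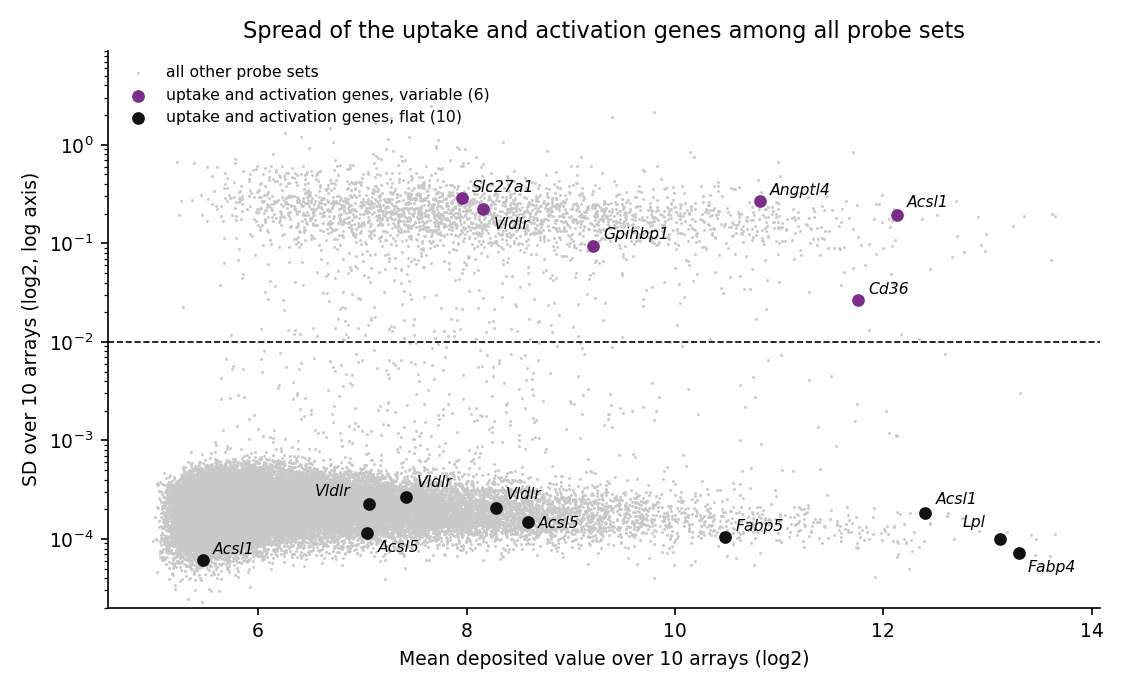
Mean deposited value (log2) and SD over the 10 arrays (log2, log axis) of every probe set tested, with the 16 probe sets of the uptake and activation genes named. The dashed line is the SD limit of 0.01; 6 of the 16 lie above it, and Lpl, Fabp4, Fabp5 and Acsl5 lie below it.

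The comparison asked whether expression differed between the noodle diet and the control diet, in a series titled for seasonings and lipid metabolism. None of the 16 probe sets passed, and only the 6 variable ones can be read for a difference. In limma, fitted on all 31042 probe sets with Benjamini-Hochberg adjustment, 0 of the 6 variable probe sets reached an adjusted p of 0.05, and 0% of all probe sets did. Their adjusted p was 0.993 or higher. At an unadjusted p under 0.05 stood 2 of the 6, Cd36 as higher and Gpihbp1 as lower in the noodle group, where 8.13% of all variable probe sets did (2.8% as higher and 5.33% as lower). In 0 of the 6 were the groups free of overlap, against 0.959% of all variable probe sets. Of the 6, 2 were higher and 4 lower in the noodle group, and 44.6% of all variable probe sets were higher. The median difference was -0.044 log2 units over the 6 and -0.012 over all variable probe sets, given as a description because sizes are not comparable between probe sets.

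**Figure D2:**
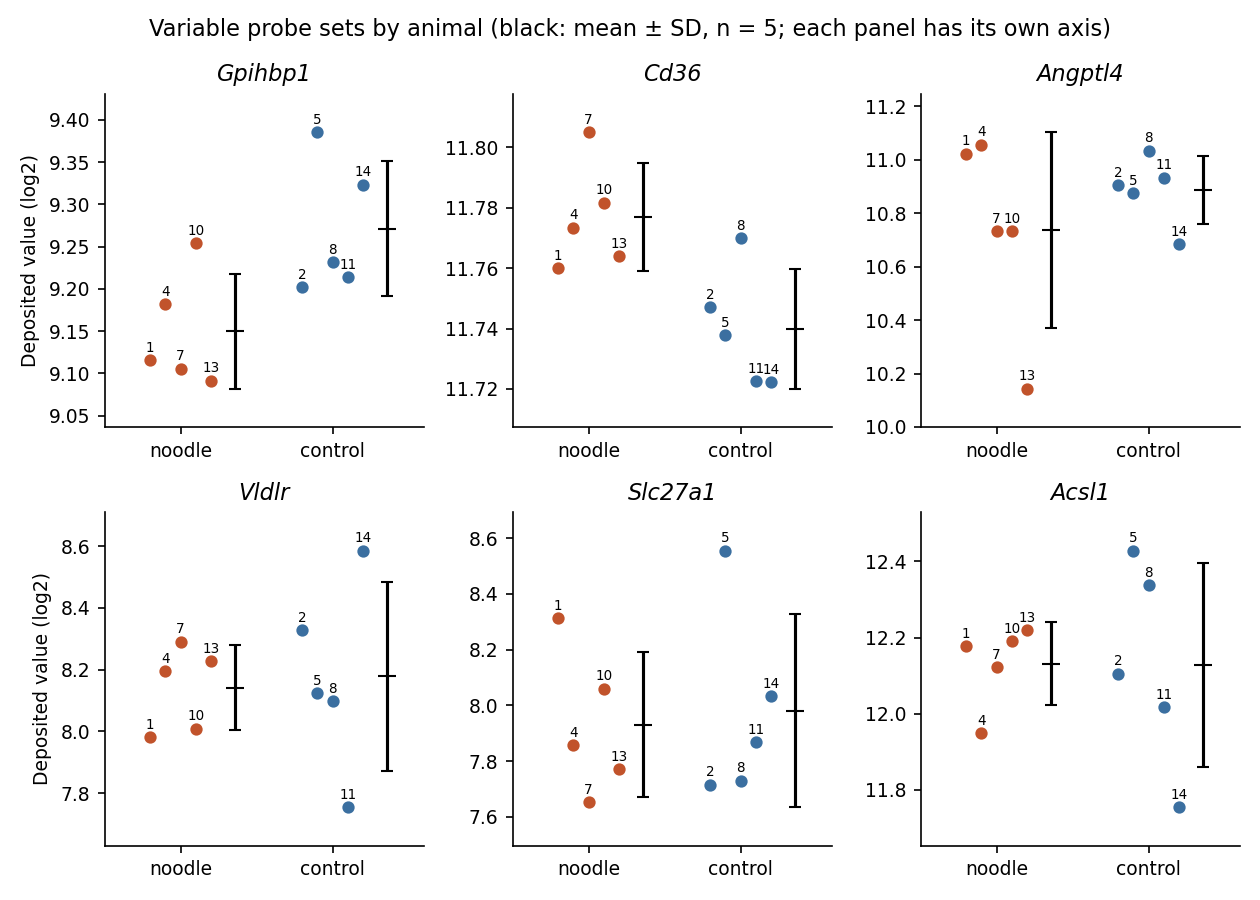
Deposited value (log2) of the 6 variable probe sets in each animal, noodle left and control right, with the animal number above each point and the mean ± SD in black (n = 5 per group; each panel has its own axis). The groups overlap in all 6 panels; noodle animal 13 is lowest for Angptl4 at 10.14 and control animal 14 is highest for Vldlr at 8.59.

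Gpihbp1, which anchors the lipase on the capillary wall, was below every control in 4 of 5 noodle animals, a difference that did not pass the test. It stood at 9.12, 9.18, 9.11, 9.25 and 9.09 in noodle animals 1, 4, 7, 10 and 13, against 9.20, 9.39, 9.23, 9.21 and 9.32 in control animals 2, 5, 8, 11 and 14. Noodle animal 10 was the one inside the control range. The difference was -0.12 ± 0.05 (SE, n = 5 per group), or 0.919-fold with a 95% interval of 0.856 to 0.988, and its adjusted p in limma was 0.993 (unadjusted p = 0.0264). Leaving out control animal 5 or 14, or noodle animal 1, 7 or 13, gave an unadjusted p of 0.0532 to 0.0613 and a difference of -0.11 to -0.093. Leaving out any other single animal gave an unadjusted p in limma of 0.0093 to 0.0349 and a difference of -0.15 to -0.13. With array weights the difference was -0.079 ± 0.046 (unadjusted p = 0.117, adjusted p = 0.91 in limma).

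The level of other endothelial genes was measured beside Gpihbp1, which is made by the endothelium. The endothelial markers, of which 15 of 17 were measured and 8 were variable, had 3 variable members higher and 5 lower. Their mean lay between 8.01 and 8.34 in noodle animals and between 8.02 and 8.30 in controls (two-sided exact permutation p = 0.5). All 15 measured endothelial markers lay above the array median. With the 3-prime to 5-prime difference as a covariate, the Gpihbp1 difference was -0.067 ± 0.054 (unadjusted p = 0.252, adjusted p = 0.832 in limma). In a limma fit on variable probe sets alone, the SE of Gpihbp1 was 0.055 and its unadjusted p 0.0537.

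Lpl itself, the lipase, stood at 13.12 in every animal of both groups, with an SD over the 10 arrays of 9.97e-05, so no difference can be read for it.

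Angptl4, the secreted inhibitor of the lipase, overlapped between the diets. It stood at 11.02, 11.06, 10.73, 10.73 and 10.14 in noodle animals 1, 4, 7, 10 and 13, against 10.90, 10.87, 11.03, 10.93 and 10.68 in control animals 2, 5, 8, 11 and 14. Noodle animal 4 was the highest of the 10 and noodle animal 13 the lowest. The spread was 0.366 in noodle animals and 0.128 in controls (SD). The difference was -0.15 ± 0.17, or 0.902-fold with a 95% interval of 0.692 to 1.18 (adjusted p = 0.993 in limma). Leaving out noodle animal 13 brought it to -0.00013, and leaving out noodle animal 4 brought it to -0.23.

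Vldlr, the lipoprotein receptor, had 4 probe sets, of which 1 was variable. That one stood at 7.98, 8.19, 8.29, 8.01 and 8.23 in noodle animals 1, 4, 7, 10 and 13, against 8.33, 8.12, 8.10, 7.75 and 8.59 in control animals 2, 5, 8, 11 and 14. Every noodle animal lay within the control range, whose ends were control animals 11 and 14. The difference was -0.037 ± 0.146, or 0.974-fold with a 95% interval of 0.774 to 1.23 (adjusted p = 0.999 in limma). Leaving out control animal 11 gave -0.14, and leaving out control animal 14 gave 0.064. The 3 flat probe sets stood at 8.28, 7.42 and 7.07 in both groups.

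Cd36, the fatty acid translocase of the fat cell membrane, was above every control in 3 of 5 noodle animals, and its difference did not pass the test. It stood at 11.76, 11.77, 11.81, 11.78 and 11.76 in noodle animals 1, 4, 7, 10 and 13, against 11.75, 11.74, 11.77, 11.72 and 11.72 in control animals 2, 5, 8, 11 and 14. Control animal 8 was the one inside the noodle range. The difference was 0.037 ± 0.012, or 1.03-fold with a 95% interval of 1.01 to 1.04, with an adjusted p of 0.993 in limma (unadjusted p = 0.0118). Its SD of 0.026 was smaller than that of all but 3.38% of the variable probe sets. In a limma fit on variable probe sets alone, whose shared spread is larger, its SE was 0.037 and its unadjusted p 0.348.

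Slc27a1, which encodes fatty acid transport protein 1, had the largest SD of the 6. It stood at 8.31, 7.86, 7.65, 8.06 and 7.77 in noodle animals 1, 4, 7, 10 and 13, against 7.72, 8.56, 7.73, 7.87 and 8.03 in control animals 2, 5, 8, 11 and 14. The 2 highest values were those of control animal 5 and noodle animal 1, 1 from each diet. The difference was -0.051 ± 0.187, or 0.966-fold with a 95% interval of 0.718 to 1.30 (adjusted p = 0.999 in limma). It was 0.093 without control animal 5 and -0.15 without noodle animal 1.

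The binding proteins had flat probe sets. Fabp4, the fatty acid binding protein abundant in fat cells, stood at 13.30 in all 10 animals, and Fabp5, its relative that is also made in macrophages and skin, at 10.48. Their SDs over the arrays were 7.12e-05 and 0.000104.

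Acsl1, the main acyl-CoA synthetase of fat cells, had 3 probe sets, of which 1 was variable. That one stood at 12.18, 11.95, 12.12, 12.19 and 12.22 in noodle animals 1, 4, 7, 10 and 13, against 12.11, 12.43, 12.34, 12.02 and 11.75 in control animals 2, 5, 8, 11 and 14. Every noodle animal lay inside the control range, and the SD was 0.108 in noodle animals and 0.268 in controls. The difference was 0.0030 ± 0.1251, or 1.002-fold with a 95% interval of 0.822 to 1.22 (adjusted p = 0.99998 in limma), and without single animals it ran between -0.091 and 0.078. The flat probe sets of Acsl1 stood at 12.40 and 5.47, and those of Acsl5, a synthetase also found on mitochondria, at 8.59 and 7.05, in both groups.

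The gap between 3-prime and 5-prime signal differed between the diets, and with it as a covariate several differences moved or turned. Slc27a1 then differed by 0.14 ± 0.23, Acsl1 by 0.16 ± 0.14, Angptl4 by 0.054 ± 0.199, Vldlr by -0.22 ± 0.17 and Cd36 by 0.042 ± 0.016, with adjusted p values in limma of 0.735 to 0.972. Of these, Slc27a1 and Angptl4 turned direction, and none passed. As the gap itself went with diet, this fit cannot fully separate diet from RNA quality.

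The neighbouring genes of the pathway did not pass either. Of 75 genes listed for lipase handling, lipoprotein receptors, membrane transport, binding, activation, thioesterases and regulation, 65 were measured. The probe set with the highest mean stood for each gene, and for 16 genes it was variable. In limma, 0 of the 65 reached an adjusted p of 0.05, and a difference can be read only for the 16. An unadjusted p under 0.05 was reached by 0 of the 16, where 7.66% of all genes with a variable probe set of this kind did. Of the 16, 9 were higher and 7 lower in the noodle group, and 44.5% of all genes with a variable probe set of this kind were higher. The median difference was 0.0017 over the 16 and -0.012 over all of those genes, with the same limit on sizes.

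Among genes that act on the lipase, Apoc3, an apolipoprotein that inhibits it, differed by -0.29 ± 0.16, Angptl8, a secreted regulator of it, by 0.33 ± 0.38, and the protease gene Pcsk6 by -0.10 ± 0.17. The lipoprotein receptors Scarb1 and Lsr differed by -0.13 ± 0.11 and -0.30 ± 0.29. Among enzymes that make or split acyl-CoA, Aacs, which activates acetoacetate, differed by 0.26 ± 0.16, Acss2, which activates acetate, by 0.076 ± 0.134, Acss3 by -0.16 ± 0.20 and the thioesterase Acot2 by 0.0053 ± 0.0068. Pparg, a transcription factor for which Lpl, Cd36, Fabp4, Acsl1 and Angptl4 are known targets, differed by -0.098 ± 0.213. Fabp3, the heart form of the binding proteins, differed by -0.083 ± 0.210, and the caveolin genes Cav1 and Cav2 by 0.0027 ± 0.0078 and 0.00066 ± 0.0229.

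**Figure D3:**
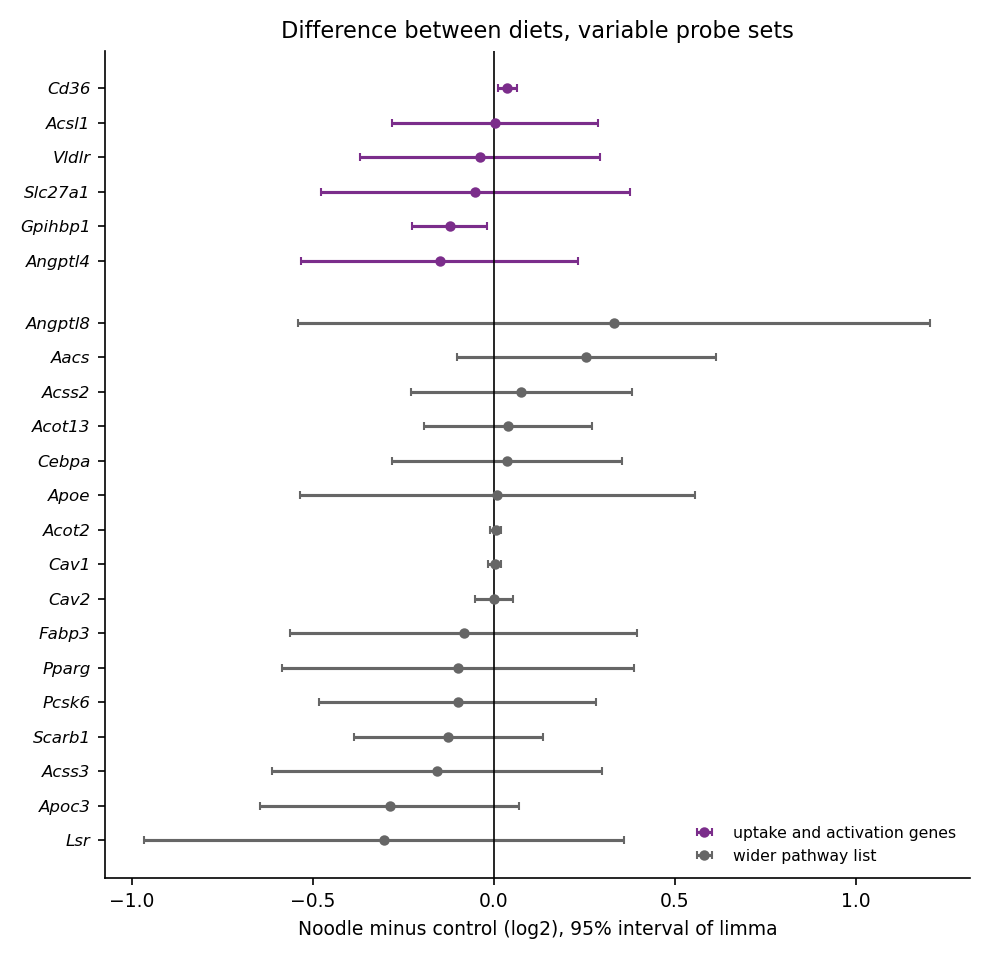
Difference between noodle and control (log2) with the 95% interval of limma for the 6 variable probe sets of the uptake and activation genes (purple) and the 16 variable genes of the wider list (grey), each sorted from high to low. The intervals of Cd36 and Gpihbp1 lie to one side of 0, without adjustment for the number of tests, and the other 20 include it.

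Between animals, the 6 variable genes did not move as a block. Of their 15 pairs, 8 had a positive and 7 a negative Pearson r over the 10 animals, from -0.56 to 0.56. By permutation, 0 of the 15 pairs passed after Benjamini-Hochberg adjustment (lowest adjusted p = 0.698), and 0 had an unadjusted p under 0.05.

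Gpihbp1 and Slc27a1 had the highest r, at 0.56 (permutation p = 0.0916, adjusted p = 0.698) with a Spearman rho of 0.54 (permutation p = 0.114, adjusted p = 0.714). Both were highest in control animal 5, where they stood at 9.39 and 8.56. Without control animal 5 and noodle animal 13, the 2 farthest from the median of Gpihbp1, r was 0.076. Leaving out extreme animals narrows the range, which can by itself weaken r. Centred on the mean of each diet group, r was 0.68 (permutation p = 0.0287, adjusted p = 0.431). With single animals left out, the uncentred r ran between 0.17 without control animal 5 and 0.84 without noodle animal 1. The second had an exact permutation p of 0.00202 and an adjusted p of 0.0303. This adjustment covered the pairs of that run alone, and not the choice of the run with the highest r.

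Gpihbp1 and Cd36 had the lowest r, at -0.56 (permutation p = 0.0931, adjusted p = 0.698), with a rho of -0.45 (permutation p = 0.19, adjusted p = 0.714). Without the same 2 animals r was -0.57. Centred on the mean of each diet group, r was -0.12 (permutation p = 0.738, adjusted p = 0.909). Acsl1 and Vldlr had an r of -0.41 (permutation p = 0.23, adjusted p = 0.872) and a rho of -0.32 (permutation p = 0.366, adjusted p = 0.914). Without control animals 5 and 14, r was 0.083. With single animals left out, it ran between -0.71 without control animal 11 and 0.080 without control animal 14, so it depended on single animals.

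**Figure D4:**
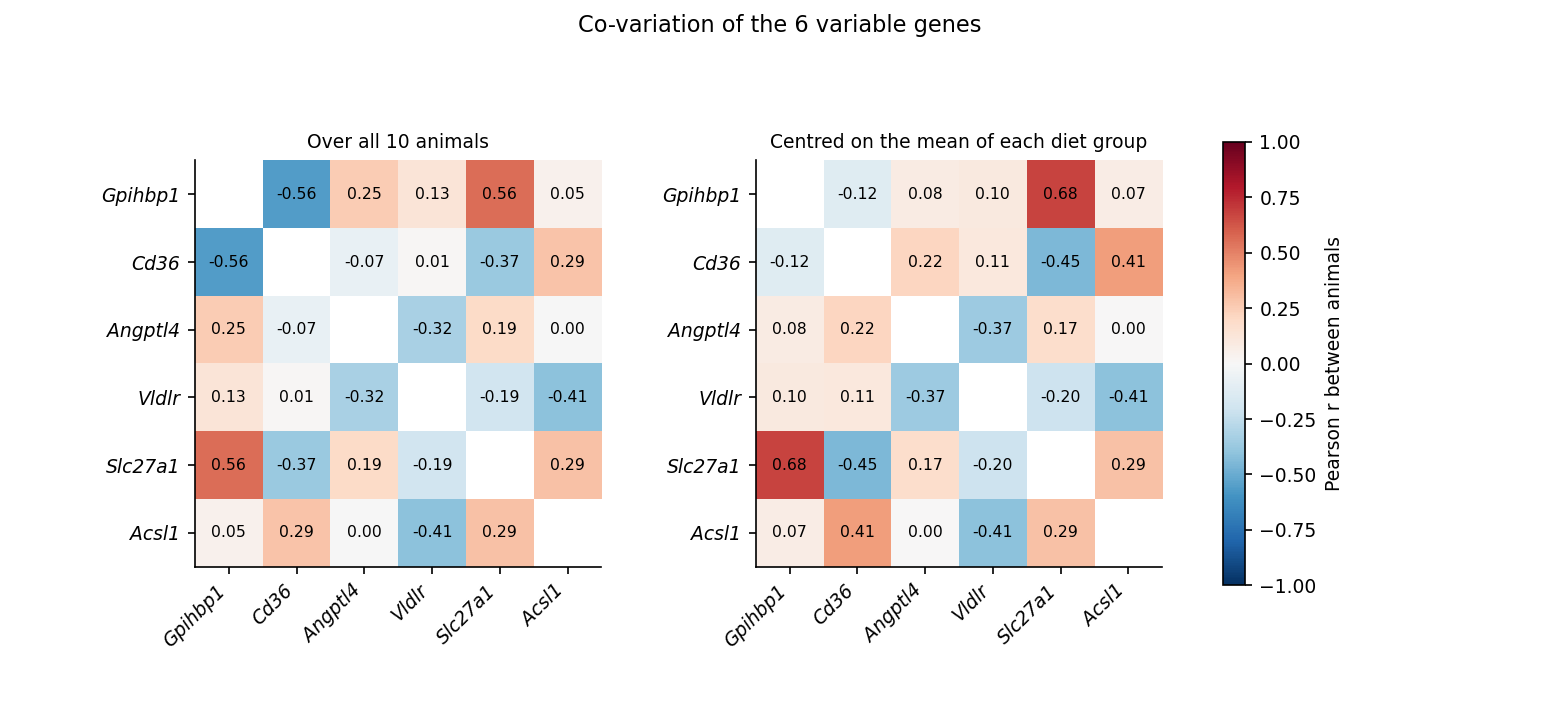
Pearson r between animals for each pair of the 6 variable genes, over all 10 animals (left) and with each value centred on the mean of its diet group (right). Values run from -0.56 to 0.56 on the left; Gpihbp1 with Cd36 is -0.56 on the left and -0.12 on the right.

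The 6 genes were set against the means of 9 marker lists and the 3-prime to 5-prime difference, 60 relations in all. Of these, 0 passed by permutation after adjustment, and 4 had an unadjusted p under 0.05, where 3 would by chance if the relations were independent. Acsl1 held 3 of the 4. It was lower where fibroblast and preadipocyte markers were higher, with an r of -0.85 (permutation p = 0.00111, adjusted p = 0.0666) and a rho of -0.83 (permutation p = 0.00434, adjusted p = 0.217). Centred on the mean of each diet group r was -0.85, and without noodle animal 4 and control animal 14 the uncentred r was -0.62. These 2 animals had the highest marker means, at 10.59 and 10.63, and the lowest Acsl1, at 11.95 and 11.75. Of that list, 12 of 14 genes were measured and 9 were variable, 4 higher and 5 lower in the noodle group, with means of 9.98 to 10.59 in noodle animals and 10.01 to 10.63 in controls.

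Acsl1 was also lower where mast cell markers were higher, with an r of -0.76 (permutation p = 0.00974, adjusted p = 0.292) and a rho of -0.75 (permutation p = 0.0179, adjusted p = 0.358). Centred on the mean of each diet group, r was -0.83 (permutation p = 0.00333). Without noodle animal 4 and control animal 14, farthest from the median of the marker means, the uncentred r was -0.27. Leaving out such animals narrows the range, which can by itself weaken r. Acsl1 was also set beside other genes of the fat cell, the 12 variable adipocyte markers. With their mean it had an r of 0.63 (permutation p = 0.0492, adjusted p = 0.577) and a rho of 0.81 (permutation p = 0.00724, adjusted p = 0.217). Without noodle animal 4 and control animal 5 that r was 0.37. The part of cell types in the Acsl1 values was not tested.

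**Figure D5:**
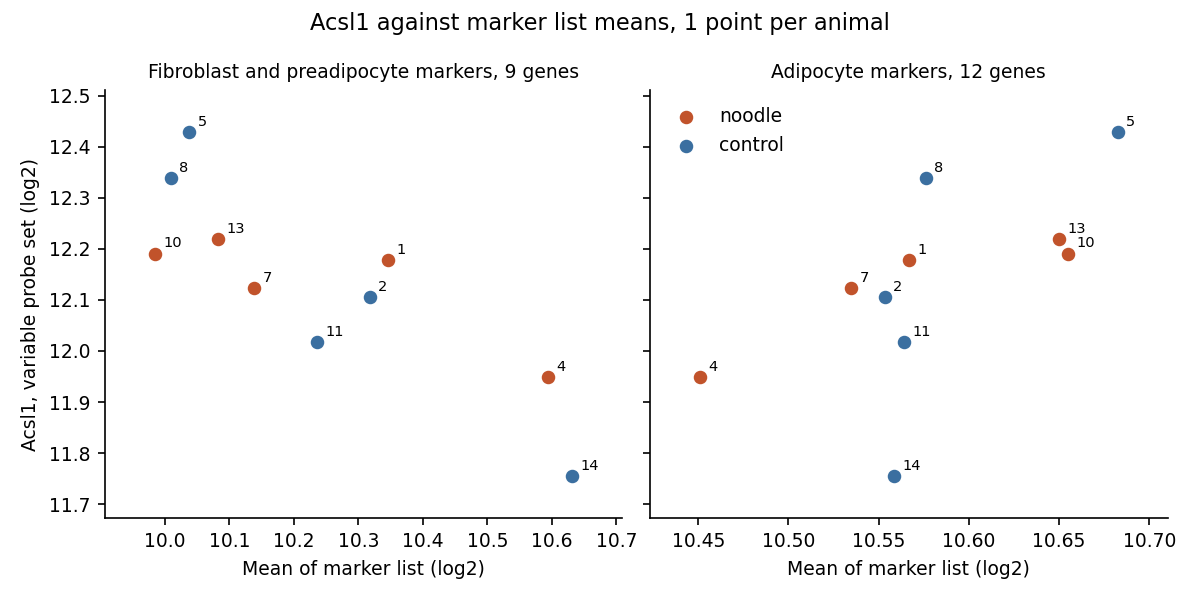
Variable probe set of Acsl1 (log2) against the mean of 9 fibroblast and preadipocyte markers (left) and of 12 adipocyte markers (right), 1 point per animal with its number. Noodle animal 4 and control animal 14 lie at the lower right of the left panel, with Acsl1 at 11.95 and 11.75.

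The 1 other relation with an unadjusted p under 0.05 joined Gpihbp1 to the 3-prime to 5-prime difference. Its r was 0.72 (permutation p = 0.0204, adjusted p = 0.408) and its rho 0.70 (permutation p = 0.0312, adjusted p = 0.423). It was 0.51 when centred on the mean of each diet group and 0.33 without noodle animal 13 and control animal 5. With endothelial markers, Gpihbp1 had an r of 0.21 (permutation p = 0.562, adjusted p = 0.785) and a rho of 0.22 (permutation p = 0.538, adjusted p = 0.829). Without noodle animal 4 and control animal 11 that r was 0.40.

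Over the 10 animals, the pattern of Cd36 was closest to those of Tm9sf3 (Pearson r = 0.87), Tmem126b (0.82), Ormdl3 (0.81), Alg8 (0.78) and Cldn1 (0.77) among 2080 variable probe sets with a single gene. That of Slc27a1 was closest to Tnip1 (0.86), Acads (0.82), Tmem120b (0.81), Pdk2 (0.81) and Rnf125 (0.80). Centred on the mean of each diet group, the values for Cd36 were 0.49 to 0.76 and those for Slc27a1 0.80 to 0.86. These genes were picked for their high r out of 2080, so the values are a description of these 10 animals.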

How the data were processed

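Gene expression was measured in white adipose tissue of 10 rats with 1 array each. Per the labels' protocols, biotin-labelled cRNA was made from 100 ng of total RNA. The values are those the authors deposited for each probe set on each array, read as log2 because they run from 4.73 to 13.9. The sources used here do not state the log base, or how the authors corrected, summarised and normalized the signals. Diet groups came from the labels, and no label names the feeding pairs, so nothing was paired. No batch is named in the sources used here.

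After 57 control probe sets were left out, limma 3.58.1 in R 4.3.3 (lmFit, eBayes with a constant prior, two-sided) was fitted on 31042 probe sets, noodle minus control, with Benjamini-Hochberg adjustment over all of them and a threshold of 0.05. Symbols were those of the platform annotation. Of 20832 probe sets with a single gene, 20764 had their gene identifier in the current gene table, and 0 symbols changed. For genes outside the 10, the probe set with the highest mean stood for the gene. Correlations used 100000 permutations with Benjamini-Hochberg adjustment within each family, and exact enumeration under 10 animals (Python 3.11.15, scipy 1.17.1). With 5 arrays per group, their number limits the precision.

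The genes, the lists and the limit on the SD were chosen with earlier results of these data known. Named were all probe sets of the 10 genes, up to 10 variable genes of the wider list with the smallest p, with Fabp3, Cav1 and Cav2 added after their values were seen, the 5 genes most like the member with the smallest p and like that with the largest SD, and the highest gene of a marker list. Marker lists covered adipocytes, endothelium, macrophages, fibroblasts and preadipocytes, mesothelium, smooth muscle and pericytes, skeletal muscle, brown adipocytes, red blood cells, lymphocytes, mast cells and brain. The alternatives were another normalization, filters on dim probe sets, another variance prior, array weights, covariates, variable probe sets alone, other limits on the SD and leaving out animals.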

Additional observations from a re-analysis of the deposited data

Results flagged for a closer look

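Of 32 groups of 5 animals examined, over the 6 variable probe sets and 10 variable genes of the wider list, 2 held an animal well apart from its 4 fellows. About 1 in 20 such groups, here 1.6, would do so by chance. Neither was in one of the 10 uptake and activation genes. Pcsk6 stood at 8.76 in control animal 14, against 7.92 to 8.12 in the other controls. Pparg stood at 9.40 in control animal 2, against 9.77 to 9.86 in the other controls.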

How the results depend on the processing

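No uptake or activation gene and no gene of the wider list passed the threshold under any alternative run, including averaged probe sets per gene, and the lowest adjusted p of the 16 probe sets was 0.368, with arrays centred on their medians. The count of variable probe sets at an unadjusted p under 0.05, 2 as reported, was 1 under quantile normalization, with array weights, with the 3-prime to 5-prime covariate and at an SD above 0.05, 0 in a fit on variable probe sets alone, and 1 to 2 without single animals. The count of pairs that co-varied, 0 as reported, was 0 under each alternative except without single animals, where it ran between 0 and 1. Of 114 repeats of single differences, 98 kept their direction and 16 turned. Slc27a1 differed by 0.0012 with array weights and 0.14 with the covariate, Vldlr by 0.023 with array weights, Angptl4 by 0.054 with the covariate and Acsl1 by -0.010 with animal number as a covariate. Without single animals the ranges were -0.15 to 0.093 for Slc27a1, -0.091 to 0.078 for Acsl1 and -0.14 to 0.064 for Vldlr, and no turn occurred for Gpihbp1 (-0.15 to -0.093), Cd36 (0.030 to 0.044) or Angptl4 (-0.23 to -0.00013). The cause was not tested. No paired analysis was possible because no animal number occurs in both groups and no label names the feeding pairs.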

Other observations

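Of the other marker lists, macrophage markers, a cell type that also expresses Lpl, Cd36, Fabp4 and Fabp5, had 20 of 20 genes measured and above the array median. Of their 17 variable genes, 16 were higher in the noodle group, with means of 8.28 to 8.72 in noodle animals and 8.20 to 8.66 in controls (difference 0.14, two-sided exact permutation p = 0.238). Mesothelial markers had 9 of 9 variable genes lower, with means of 6.22 to 7.12 in noodle animals and 6.15 to 7.74 in controls (difference -0.30, two-sided exact permutation p = 0.389). Red blood cell markers had 3 of 3 variable genes lower, with means of 9.03 to 9.46 in noodle animals and 9.26 to 9.81 in controls (difference -0.30, two-sided exact permutation p = 0.0635). Mast cell markers had 5 of 5 variable genes lower (difference -0.18, p = 0.278), brown adipocyte markers 3 of 3 higher (0.17, p = 0.54), smooth muscle and pericyte markers 2 of 5 higher (-0.068, p = 0.635), adipocyte markers 5 of 12 higher (-0.015, p = 0.675) and fibroblast and preadipocyte markers 4 of 9 higher (-0.017, p = 0.929), all by the same exact test. Skeletal muscle, brain and lymphocyte markers had 1, 2 and 0 variable genes and were given no mean.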
